A study of Homo sapiens with 36 samples.

Results

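The expression of 10 genes that mark the alveolar epithelium was followed in A549 cells exposed to cigarette smoke extract (CSE). The genes were taken by name: SFTPB, SFTPC, SFTPD, NAPSA, ABCA3, LPCAT1, SLC34A2 and NKX2-1 for type II cells, and HOPX and AGER for type I cells. Each was read from the transcript cluster (the array's unit for 1 gene) that carries that single symbol. All 10 were found among the 18417 genes that could be named this way, out of 33297 transcript clusters. AGER had 3 such clusters, and the one with the highest mean over all arrays was used.

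Alveolar type II cells make surfactant, the lipid and protein film that keeps the air sacs open, and store it in lamellar bodies. They also divide and give rise to the flat type I cells through which gas is exchanged. The transcription factor NKX2-1 keeps the type II program on, and loss of surfactant genes and a gain of other programs are known features of injured or transformed alveolar epithelium.

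A549 is a line from a human lung adenocarcinoma, used as a model of type II cells, and every group here is this line in medium with low serum. CSE was smoke bubbled into medium, renewed daily. There were 12 groups of 3 arrays: cells with CSE at 1%, 5% or 10% and control cells without CSE, each at 1, 3 and 5 weeks. The study calls the replicates individual experiments, so the p-values measure the spread between these. The 5-week controls were grouped by their titles, but their descriptions name 3 weeks.

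The values are RMA signals on the log2 scale, with array medians from 6.72 to 6.91. The 3 control arrays at 5 weeks stood apart: their values spread less (SD over clusters 2.15 to 2.21) than those of the other 33 arrays (2.25 to 2.31). The 10 genes and the gene lists at 5 weeks were therefore set against these controls and also against the 6 control arrays of weeks 1 and 3 (the earlier controls). Differences are limma log2 fold changes of CSE over control unless stated, and a gene is said to rise or fall where its Benjamini-Hochberg adjusted p over all clusters was under 0.05.

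Most of the markers had dim signals in these cells. The mean over the 36 arrays lay below the median of all clusters, 6.79, for 7 of the 10 genes, namely SFTPB, SFTPC, NAPSA, SLC34A2, NKX2-1, HOPX and AGER. The same held for 11 of 16 other type II genes and 11 of 21 other type I genes. It also held for 7 of 8 fibroblast markers and 6 of 8 immune and endothelial markers, which a pure epithelial line should lack. Probes differ in brightness, so levels are not compared between genes, and a dim signal cannot be told apart here from no transcript. SFTPD (mean 7.20), ABCA3 (8.57) and LPCAT1 (9.28) lay above the median.

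None of the 10 genes varied much. The 12 group means of a gene spanned between 0.27 (AGER) and 0.79 (LPCAT1) log2 units, and the SD of the 3 replicates of a group lay between 0.0139 and 0.305. When the groups were put in order of their mean, the arrays of neighbouring groups overlapped in at least 10 of the 11 neighbouring pairs for every gene. Neighbours in such an order lie close by construction, so this count does not measure how much a gene changed. LPCAT1, with the widest span, also had 10. No gene reached the cut-offs that the methods set (a log2 fold change beyond 1 with B, the log odds of a change, above 0) in any of the 9 comparisons with control. Of all clusters, these cut-offs called 0.324%, 0.895% and 1.52% with CSE 1%, 5% and 10% at 1 week. They called 0.748%, 1.74% and 2.5% at 3 weeks, and 4.02%, 9.15% and 9.08% at 5 weeks.

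**Figure D1:**
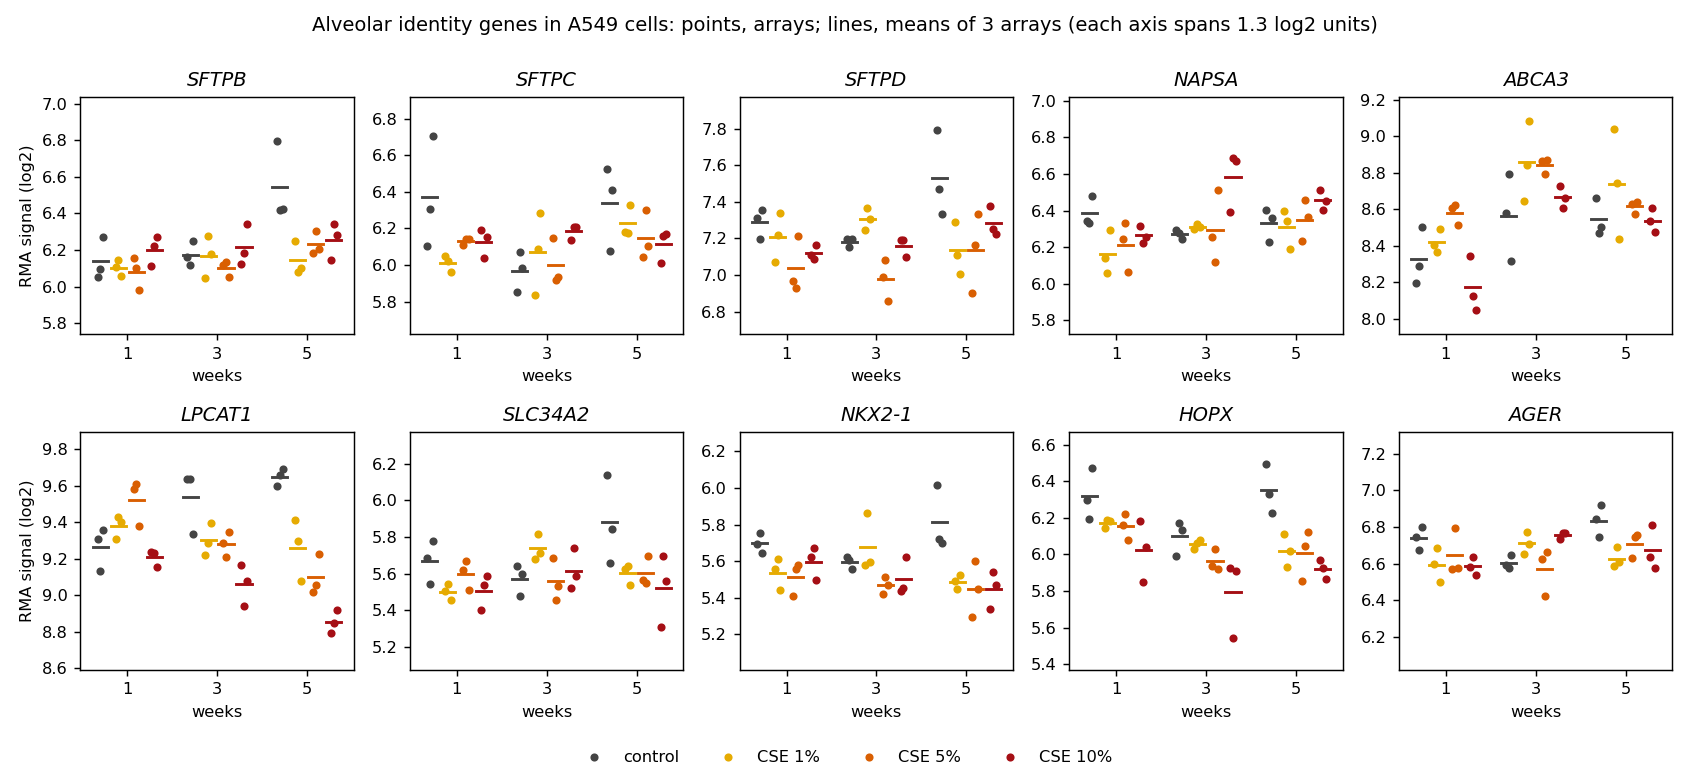
RMA signal (log2, y axis) of the 10 genes by week (x axis), with control, CSE 1%, 5% and 10% side by side in each week. Points are arrays and lines are means of 3 arrays. LPCAT1 steps down with the concentration at 5 weeks, while for SFTPB and NKX2-1 the 5-week control replicate 1 is the highest array of all.

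LPCAT1, the acyltransferase that makes the saturated phosphatidylcholine of surfactant, had the widest range of the 10. At 5 weeks its replicates read 9.60, 9.66 and 9.69 in control cells. With CSE 1% they read 9.41, 9.30 and 9.08, with CSE 5% 9.02, 9.05 and 9.22, and with CSE 10% 8.79, 8.85 and 8.92. Each concentration lay wholly below the controls, and the group means went down in the order of concentration. The log2 fold changes were -0.39 with CSE 1% (SE 0.092, adjusted p = 0.0011), -0.55 with CSE 5% (adjusted p = 1.29e-05) and -0.79 with CSE 10% (adjusted p = 5.05e-08). CSE 10% was also lower than CSE 1% at this time, by a log2 fold change of -0.41 (adjusted p = 0.00334). It was the only one of the 10 called in that comparison, in which 8.67% of all clusters differed.

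The decrease of LPCAT1 was already present at 3 weeks with the highest concentration. Its replicates were 9.17, 8.94 and 9.08 with CSE 10%, against 9.64, 9.63 and 9.34 in control cells, with no overlap (log2 fold change -0.47, adjusted p = 0.000223). With CSE 5% they were 9.28, 9.21 and 9.35, overlapping the lowest control array (-0.25, adjusted p = 0.0496). With CSE 1% the difference was of like size but was not called (-0.23, adjusted p = 0.107). The CSE 5% call rested on single arrays. Without CSE 5% replicates 1, 2 or 3, adjusted p was 0.105, 0.146 or 0.0642, and without control replicates 1 or 2 it was 0.176 or 0.216. Centred on housekeeping genes, the CSE 5% value was -0.12 (adjusted p = 0.411), where the median of all clusters was 0.09.

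At 1 week LPCAT1 was not lower. The 3 CSE 5% arrays (9.58, 9.61 and 9.38) lay above the controls (9.31, 9.13 and 9.36), though the difference did not pass the test (log2 fold change 0.26, adjusted p = 0.0732). The difference at 5 weeks minus that at 1 week was -0.50, -0.81 and -0.74 with CSE 1%, 5% and 10% (adjusted p = 0.00802, 6.76e-05 and 0.00014). In the same tests, SFTPB also differed with CSE 1% (-0.36, adjusted p = 0.0416) and CSE 10% (-0.35, adjusted p = 0.0379). So 2, 1 and 2 of the 10 genes had a lower effect at 5 weeks with CSE 1%, 5% and 10%, where 10.2%, 15.7% and 16% of all clusters did.

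In the control cells LPCAT1 was itself higher at 5 weeks than at 1 week, by 0.38 (adjusted p = 0.00128). Set against the earlier control arrays (weeks 1 and 3 together), LPCAT1 at 5 weeks had log2 fold changes of -0.30 with CSE 5% (adjusted p = 0.00487) and -0.55 with CSE 10% (adjusted p = 3.93e-06). With CSE 1% it was -0.14 (95% interval -0.30 to 0.02, adjusted p = 0.27). All 3 CSE 10% arrays lay below all 6 of these controls.

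**Figure D2:**
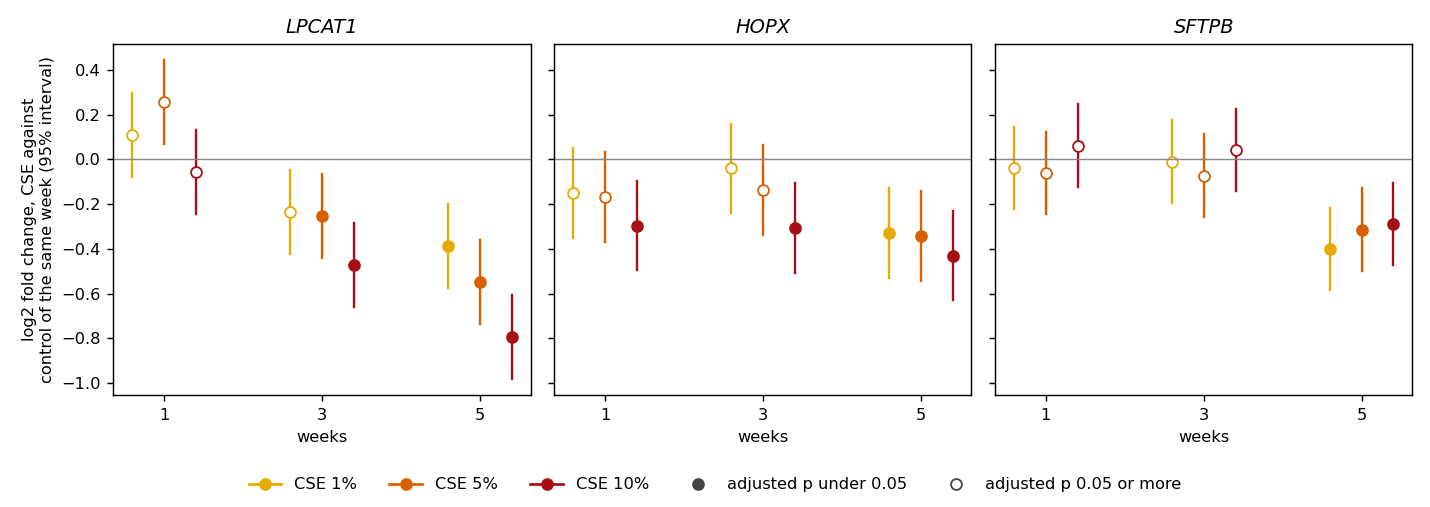
Log2 fold change of CSE over control of the same week (y axis) for LPCAT1, HOPX and SFTPB at 1, 3 and 5 weeks (x axis), by concentration. Bars are 95% intervals and filled points have an adjusted p under 0.05. LPCAT1 has -0.39, -0.55 and -0.79 at 5 weeks with CSE 1%, 5% and 10%, HOPX is called with CSE 10% at every week, and SFTPB is called at 5 weeks alone.

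HOPX, an atypical homeodomain protein found in type I cells, fell with CSE 10% at every week in the RMA values as deposited. It was the only one of the 10 to do so. At 1 week its replicates were 6.19, 5.85 and 6.04 with CSE 10%, against 6.30, 6.19 and 6.48 in control cells (log2 fold change -0.30, SE 0.098, adjusted p = 0.0352). At 3 weeks they were 5.93, 5.54 and 5.91, against 5.99, 6.17 and 6.13 (-0.31, adjusted p = 0.0197). At 5 weeks they were 5.97, 5.93 and 5.87, against 6.50, 6.33 and 6.23 (-0.43, adjusted p = 0.000493). The CSE 10% arrays thus lay below the controls of their own week each time, by margins that were close to 0 at 1 week.

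The early calls of HOPX depended on single arrays and on the processing. Centred on housekeeping genes, the CSE 10% values were -0.28 at 1 week and -0.15 at 3 weeks (adjusted p = 0.0624 and 0.254). The median of all clusters was then -0.01 and 0.17. At 1 week, adjusted p was 0.231 without CSE 10% replicate 2 and 0.0768 without replicate 3, and 0.0537 and 0.223 without control replicates 1 and 3. At 3 weeks it was 0.209 without CSE 10% replicate 2, the lowest of the 36 arrays for HOPX, and 0.0916 and 0.0599 without control replicates 2 and 3. At 5 weeks no single array removed the call with CSE 10%. With CSE 1% and 5% HOPX also fell at 5 weeks (-0.33 and -0.34, adjusted p = 0.00645 and 0.00351), with all arrays below the controls, and without control replicate 1 the CSE 1% value was -0.26 (adjusted p = 0.0541). After cyclic loess normalization these 2 values were -0.12 and -0.11 (adjusted p = 0.261 and 0.268), and the CSE 10% value was -0.22 (adjusted p = 0.0301). Set against the earlier controls, the 5-week value was -0.29 with CSE 10% (adjusted p = 0.00976, or 0.0548 without CSE 10% replicate 3). Centred on housekeeping genes, that CSE 10% value was -0.19 (adjusted p = 0.0977). With CSE 5% and 1% the values as deposited were -0.20 and -0.19 (adjusted p = 0.0775 and 0.144).

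Sequence just upstream of the start sites is shown for these 2 genes, and for SFTPB as the surfactant gene whose control by NKX2-1 is best known. Windows of 250 bases before a start (RefSeq, GRCh38.p14) were at hand for 9 of the 10 genes, 14 windows in all. They were searched on both strands for TCAAG, a core of sites for NKX2 factors, and GCGTG, the core of the xenobiotic response element bound by the aryl hydrocarbon receptor, which smoke components activate. The 2 motifs do not overlap each other. Capitals mark a match, as TCAAG or, on the other strand, CACGC.
LPCAT1 (chr5:1523961-1524210, minus strand): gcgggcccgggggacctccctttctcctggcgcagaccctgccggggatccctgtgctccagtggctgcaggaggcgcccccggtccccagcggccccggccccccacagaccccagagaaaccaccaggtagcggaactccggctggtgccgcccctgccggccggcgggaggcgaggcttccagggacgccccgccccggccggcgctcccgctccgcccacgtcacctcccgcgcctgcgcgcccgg
HOPX (chr4:56681297-56681546, minus strand): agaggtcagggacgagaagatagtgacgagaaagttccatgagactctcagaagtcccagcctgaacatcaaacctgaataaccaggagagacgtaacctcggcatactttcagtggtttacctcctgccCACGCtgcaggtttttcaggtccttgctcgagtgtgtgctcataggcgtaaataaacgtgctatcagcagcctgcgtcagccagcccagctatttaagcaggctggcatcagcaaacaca
SFTPB (chr2:85668200-85668449, minus strand): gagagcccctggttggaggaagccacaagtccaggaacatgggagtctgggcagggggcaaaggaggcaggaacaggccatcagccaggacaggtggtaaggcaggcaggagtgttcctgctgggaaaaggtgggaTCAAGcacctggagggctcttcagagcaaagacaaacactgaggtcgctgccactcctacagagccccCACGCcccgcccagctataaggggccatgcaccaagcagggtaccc

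The window of LPCAT1, rich in G and C, held neither motif. HOPX and SFTPB each have a further window, which held neither motif and is not shown. The window shown for HOPX held GCGTG on the other strand, with its first base at -120 from the start, and the one shown for SFTPB held TCAAG at -114 and GCGTG on the other strand at -46. Across the 14 windows, TCAAG was found in 3 and GCGTG in 5, while 29.2% and 32.2% of all 35116 windows of this length held them. The arrays hold no measure of binding, so these are matches of letters only.

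Of the surfactant proteins, SFTPB and SFTPD fell against the 5-week controls and SFTPC was not called. SFTPB, a small hydrophobic protein needed for the surfactant film, had 6.79, 6.42 and 6.42 in control cells at 5 weeks. It had 6.25, 6.08 and 6.10 with CSE 1%, 6.19, 6.30 and 6.20 with CSE 5%, and 6.15, 6.34 and 6.28 with CSE 10%. All exposed arrays lay below all controls, with log2 fold changes of -0.40, -0.31 and -0.29 at 1%, 5% and 10% (adjusted p = 0.000675, 0.00368 and 0.00715). The controls themselves had risen by 0.37 against 3 weeks (adjusted p = 0.00121) and by 0.41 against 1 week (adjusted p = 0.000596). From the earlier controls the exposed cells differed by -0.01, 0.07 and 0.10, with no call (adjusted p = 0.946, 0.528 and 0.36). Without control replicate 1 at 5 weeks, the CSE 5% and 10% values were -0.19 and -0.16 (adjusted p = 0.0631 and 0.108).

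SFTPD, a collectin that binds microbes in the airspace, had 7.29, 7.11 and 7.01 with CSE 1% at 5 weeks, against 7.79, 7.47 and 7.33 in control cells (log2 fold change -0.40, adjusted p = 0.00317). With CSE 5% and 10% it also fell (-0.40 and -0.25, adjusted p = 0.00215 and 0.0447), but there the arrays overlapped the controls. The CSE 10% call was lost without control replicate 1 (-0.12, adjusted p = 0.361) and without CSE 10% replicates 2 or 3 (adjusted p = 0.103 or 0.126). SFTPD differed from the earlier controls by -0.10, -0.10 and 0.05 with CSE 1%, 5% and 10%, with no call. SFTPC, the surfactant protein most particular to type II cells, was not called against control at any concentration or week. Its largest difference was at 1 week with CSE 1%, with 6.05, 6.02 and 5.96 against 6.11, 6.30 and 6.70 in control cells (-0.36, 95% interval -0.61 to -0.11, adjusted p = 0.0836). In control cells it was lower at 3 weeks than at 1 week, with a log2 fold change of -0.40 (adjusted p = 0.0283), the only one of the 10 among the 5.27% of clusters that fell between these times. Without control replicate 3 at 1 week that value was -0.24 (adjusted p = 0.285). Without control replicates 1 or 3 at 3 weeks, adjusted p was 0.14 or 0.0559.

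The other genes of surfactant handling did not move as one group. NAPSA, an aspartic protease that processes surfactant protein B, had 6.39, 6.69 and 6.67 with CSE 10% at 3 weeks, against 6.29, 6.28 and 6.24 in control cells. It rose there by 0.31 (SE 0.094, adjusted p = 0.0127), where 14% of all clusters rose. No other of the 10 genes rose against control in the RMA values as deposited. Centred on housekeeping genes, SFTPC and AGER also rose with CSE 10% at 3 weeks (0.37 and 0.30, adjusted p = 0.0249 and 0.00737). That centring put the median of all clusters at 0.17, against 0.01 as deposited. As deposited, 11 of the 25 housekeeping genes fell there and 2 rose. Without CSE 10% replicates 2 or 3 the NAPSA value at 3 weeks was 0.26 or 0.27 (adjusted p = 0.0765 or 0.0695). At 5 weeks NAPSA differed by -0.02, 0.02 and 0.12 with CSE 1%, 5% and 10%, with no call, and from the earlier controls by -0.02, 0.02 and 0.13. After cyclic loess the CSE 5% and 10% values against the 5-week controls were 0.22 and 0.31 (adjusted p = 0.0333 and 0.00359).

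ABCA3, the lipid transporter of the lamellar body, was not called in any of the 21 comparisons in the RMA values as deposited. Its values against control lay between -0.16 (CSE 10% at 1 week) and 0.29 (CSE 1% at 3 weeks). At 5 weeks with CSE 10% it had 8.53, 8.61 and 8.47, against 8.66, 8.47 and 8.50 in control cells, and the 95% interval of the difference was -0.26 to 0.24. From the earlier controls it differed by 0.29, 0.17 and 0.09 with CSE 1%, 5% and 10% (adjusted p = 0.0606, 0.26 and 0.555). Centred on housekeeping genes, ABCA3 rose with CSE 1% and 5% at 3 weeks (both 0.41, adjusted p = 0.0243 and 0.0148) and with CSE 1% at 5 weeks from the earlier controls (0.37, adjusted p = 0.0141). The median of all clusters was then 0.11, 0.09 and 0.08, in that order. After cyclic loess the value with CSE 1% at 5 weeks from the earlier controls was 0.29 (adjusted p = 0.0499). ABCA3 was then also higher in control cells at 5 weeks than at 1 week (0.32, adjusted p = 0.0338). SLC34A2, the phosphate transporter of the type II cell surface, fell at 5 weeks, with log2 fold changes of -0.28, -0.28 and -0.36 for CSE 1%, 5% and 10% (adjusted p = 0.0223, 0.0196 and 0.00351). With the earlier controls in their place these values were -0.02, -0.02 and -0.10, with no call. Without control replicate 1 at 5 weeks they were -0.15, -0.15 and -0.23 (adjusted p = 0.233, 0.216 and 0.0563). Leaving out CSE 1% replicate 3, or CSE 5% replicates 1 or 2, also removed the call of SLC34A2 at that concentration (adjusted p = 0.0783, 0.0582 and 0.0644).

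NKX2-1, the factor that specifies lung epithelium, had 5.34, 5.54 and 5.47 with CSE 10% at 5 weeks, against 6.02, 5.72 and 5.70 in control cells. It fell, with log2 fold changes of -0.33, -0.37 and -0.36 for CSE 1%, 5% and 10% (adjusted p = 0.00418, 0.00111 and 0.00122), and all exposed arrays lay below all controls. Without control replicate 1 the CSE 1% value was -0.22 (adjusted p = 0.0553). After cyclic loess none of the 3 was called (-0.08, -0.10 and -0.13, adjusted p = 0.438, 0.305 and 0.185). With the earlier controls the values were -0.16, -0.20 and -0.20 (adjusted p = 0.192, 0.061 and 0.0556). With cyclic loess, the last 2 of these were -0.19 and -0.22 and passed the test (adjusted p = 0.034 and 0.0128). AGER, the receptor for advanced glycation end products and a marker of type I cells, was called with CSE 1% alone (-0.21, adjusted p = 0.0237). That call was lost without control replicates 1 or 3 or CSE 1% replicates 1 or 3 (adjusted p = 0.0587, 0.0962, 0.0679 and 0.0633). With CSE 10% it was -0.16 (adjusted p = 0.067) in the cluster used, and -0.19 and -0.20 in its other clusters (adjusted p = 0.0361 and 0.0332). AGER differed from the earlier controls by -0.05, 0.04 and 0.00 with CSE 1%, 5% and 10%, with no call. Over the 36 arrays the 3 clusters correlated at 0.975 or more.

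Set side by side, the counts show how the weeks differed. At 1 week, 0, 0 and 1 of the 10 genes fell with CSE 1%, 5% and 10%, where 1.9%, 4.84% and 8.44% of all clusters fell. At 3 weeks, 0, 1 and 2 fell, where 5.81%, 9.93% and 12.5% of all clusters fell. At 5 weeks, 7, 6 and 6 fell, where 33.5%, 40.3% and 39.6% of all clusters fell. The 6 at CSE 5% and 10% were SFTPB, SFTPD, LPCAT1, SLC34A2, NKX2-1 and HOPX, with AGER added at CSE 1%. After cyclic loess 3, 2 and 2 fell at 5 weeks, namely SFTPB, SFTPD and LPCAT1 with CSE 1%, SFTPD and LPCAT1 with CSE 5%, and LPCAT1 and HOPX with CSE 10%. The median of all clusters was then -0.015, -0.030 and -0.034, and the share that fell after cyclic loess is not given. Between CSE 10% and CSE 1%, none of the 10 genes was called at 1 or 3 weeks, where 11.9% and 12.3% of all clusters differed. By unadjusted p under 0.05, limma gave 0 and 3 of them there.

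The falls at 5 weeks stood beside a shift of dim clusters and of the controls, whose part in them was not tested. Of the 16648 dimmer clusters, 39.9%, 46% and 42.9% fell with CSE 1%, 5% and 10%, and their median log2 fold change was -0.22, -0.25 and -0.23. The median over the 10 genes was -0.30, -0.30 and -0.27. In control cells, 7 of the 10 genes rose between 3 and 5 weeks (SFTPB, SFTPC, SFTPD, SLC34A2, NKX2-1, HOPX and AGER), where 31.7% of all clusters and 42.6% of the dimmer ones rose. Between 1 and 5 weeks 2 of the 10 rose, SFTPB and LPCAT1, where 28.2% of all clusters did. Control replicate 1 at 5 weeks was the highest of the 36 arrays for 5 of the 10 genes. Without it, 3, 4 and 3 of the genes fell with CSE 1%, 5% and 10%, and 2 rose in control cells between 3 and 5 weeks. Shares of all clusters for these fits are not given, so the counts have no background beside them.

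Set against the control arrays of weeks 1 and 3, the count of genes that fell at 5 weeks was 0, 1 and 2 of the 10 with CSE 1%, 5% and 10%. Of all clusters, 7.43%, 13% and 16% fell in these comparisons. The called genes were LPCAT1 with CSE 5% and LPCAT1 and HOPX with CSE 10%. SFTPB, SFTPD and SLC34A2, which fell against the controls of their own week, were not called with any concentration.

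**Figure D3:**
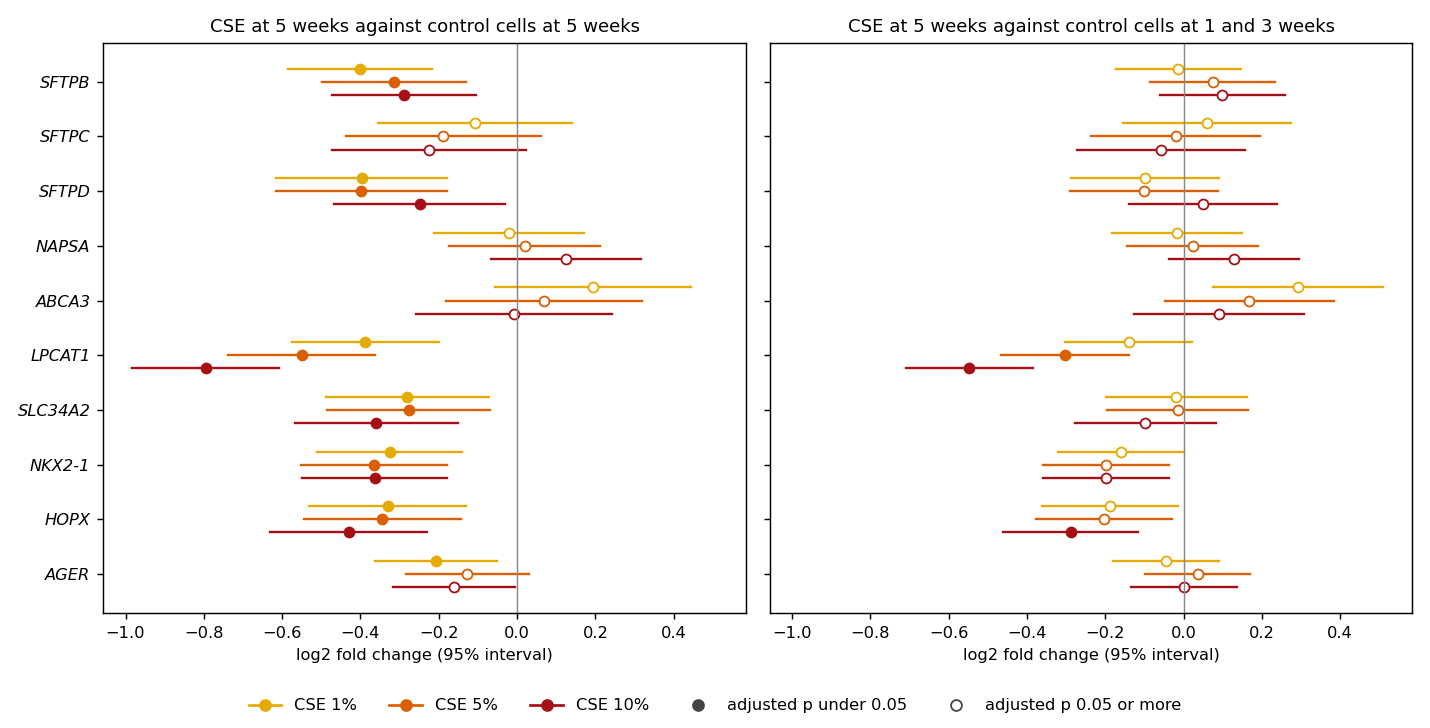
Log2 fold change (x axis) of the 10 genes (y axis) at 5 weeks with CSE 1%, 5% and 10%, against the 5-week controls (left) and against the controls of weeks 1 and 3 (right). Filled points have an adjusted p under 0.05. On the left 7, 6 and 6 genes are called, and on the right 0, 1 and 2.

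Other genes of surfactant lipid handling moved in both directions. Of 19 measured, 9 rose and 4 fell at 5 weeks with CSE 5%, where 23% of all clusters rose and 40.3% fell. With CSE 10%, 9 rose and 5 fell, where 21.9% and 39.6% did. Set against the earlier controls, 4 rose and 5 fell with each of these concentrations, where 13.1% of all clusters rose and 13% fell with CSE 5%, and 15% rose and 16% fell with CSE 10%. LPCAT2, another lysophosphatidylcholine acyltransferase, averaged 10.03 with CSE 5% against 7.59 in control cells at 5 weeks (log2 fold change 2.44, adjusted p = 6.97e-10). The LPCAT2 value with CSE 5% was 1.00 from the earlier controls (adjusted p = 0.000208). LPIN1, a phosphatidate phosphatase, rose with CSE 5% by 0.75, and by 0.58 from the earlier controls (adjusted p = 2.97e-10 and 3.29e-09). MFSD2A, a transporter of lysophosphatidylcholine, fell with CSE 10% at 1 week (-0.89, adjusted p = 1.54e-08) and with CSE 5% at 5 weeks (-0.87, or -1.25 from the earlier controls, adjusted p = 1.16e-08 and 4.19e-13). SCD, which puts the double bond into fatty acids, fell with CSE 10% at 1 week, to a mean of 10.89 against 12.53 in control cells (-1.63, adjusted p = 7.29e-14).

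Further type II and type I genes were split as well. Of 16 other type II genes, 5 passed upward and 4 downward at 5 weeks with CSE 5% (all clusters: 23% and 40.3%), and 5 each way with CSE 10% (21.9% and 39.6%). Beside the earlier controls, 5 rose and 1 fell with CSE 5% (all clusters: 13.1% and 13%), and 3 rose and 2 fell with CSE 10% (15% and 16%). DRAM1, a regulator of autophagy, averaged 8.21 with CSE 5% against 5.80 in control cells at 5 weeks (log2 fold change 2.42, adjusted p = 1.6e-17), and its value from the earlier controls was 1.41 (adjusted p = 8.22e-14). HHIP, an inhibitor of hedgehog signalling, averaged 7.58 against 5.72 (1.86, adjusted p = 7.97e-10), or 1.72 from the earlier controls (adjusted p = 2.57e-10). Others fell, such as ACOXL with CSE 5% at 5 weeks (-0.60, adjusted p = 3.71e-05). ACOXL averaged 4.83 with CSE 5% and 5.43 in control cells at 5 weeks, and 4.96 over all arrays. Its value from the earlier controls is not given, and the part of the 5-week controls in this fall was not tested. C4BPA and MUC1 fell with CSE 10% at 1 week (-1.52 and -0.73, adjusted p = 4.59e-10 and 0.000597). With CSE 10% at 1 week, 3 of the 16 rose and 3 fell, where 8.27% of all clusters rose and 8.44% fell.

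Of 21 other type I genes, 5 rose and 10 fell at 5 weeks with CSE 5% (all clusters: 23% and 40.3%), and 5 rose and 11 fell with CSE 10% (21.9% and 39.6%). From the earlier controls 4 rose and 6 fell with CSE 5% (all clusters: 13.1% and 13%), and 2 rose and 6 fell with CSE 10% (15% and 16%). After cyclic loess 5 rose and 3 fell with CSE 5% against the 5-week controls, and 6 rose and 3 fell with CSE 10%. The median log2 fold change of all clusters was then -0.03 with each, and the shares of all clusters called after cyclic loess are not given. CAV1, the main protein of caveolae, rose with CSE 10% at 5 weeks (1.65, adjusted p = 5.64e-12), while GPRC5A, a receptor known as a lung tumour suppressor in mice, fell (-2.12, adjusted p = 1.36e-13). From the earlier controls these were 1.33 and -1.73 (adjusted p = 2.74e-11 and 4.25e-13).

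Among 23 transcription factors of lung epithelium, 8 were higher and 11 lower at 5 weeks with CSE 10%, where 21.9% of all clusters rose and 39.6% fell. With the earlier controls 3 rose and 13 fell, where 15% of all clusters rose and 16% fell. KLF4 was lower in both (log2 fold change -1.33 and -1.79, adjusted p = 1.3e-12 and 6.04e-17), as was SOX9, a factor of the distal lung tip (-1.12 and -1.16, adjusted p = 3.81e-11 and 7.73e-13). WWTR1, also known as TAZ, was higher in both (1.22 and 0.89, adjusted p = 2.6e-08 and 7.67e-07). Of 11 genes of the transitional state between type II and type I cells, 4 were higher and 7 lower at 5 weeks with CSE 10%, and 3 rose and 6 fell from the earlier controls, beside the same shares of all clusters. At 1 week with CSE 10%, 5 of these 11 rose and 3 fell, where 8.27% of all clusters rose and 8.44% fell.

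Markers of other cell types also fell at 5 weeks. With CSE 10%, 8 of 10 airway markers, 5 of 8 fibroblast markers, 5 of 8 immune and endothelial markers and 11 of 14 gut and liver genes fell, and 2 gut and liver genes rose. Of all clusters 39.6% fell and 21.9% rose there, and of the dimmer ones 42.9% fell and 7.73% rose. From the earlier controls, with CSE 10%, 2 airway markers, 1 fibroblast marker, 0 immune or endothelial markers and 4 gut and liver genes fell, where 16% of all clusters did. In the same comparison 1 gut or liver gene and 1 immune or endothelial marker rose, where 15% of all clusters did. With CSE 5% the counts that fell from the earlier controls were 4, 1, 2 and 4 in that order, where 13% of all clusters fell. There 3 gut and liver genes rose, where 13.1% of all clusters did. With CSE 10% at 1 week, 2 airway markers, 1 fibroblast marker, 1 immune or endothelial marker and 6 gut and liver genes already fell, where 8.44% of all clusters did. Among them were TFF1 (-3.10), VIL1 (-2.50) and the airway mucin MUC5B (-1.38, adjusted p = 1.35e-17, 5.98e-18 and 1.22e-08). The mean level of the fibroblast list was 5.63 to 5.81 over the 9 exposed arrays at 5 weeks, 5.90 to 6.15 in the 5-week controls and 5.67 to 5.87 in the earlier controls. That of the immune and endothelial list was 6.01 to 6.24 over the exposed arrays, 6.38 to 6.64 in the 5-week controls and 6.12 to 6.39 in the earlier controls. Every group is the A549 line, so falls of fibroblast, immune and endothelial markers are not read as a loss of such cells.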

How the data were processed

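RNA from 36 cultures was hybridised to Affymetrix Human Gene 1.0 ST arrays. The deposited values are log2 signals that the authors made by background correction and RMA normalization (R 2.11.0 per the labels), which sets all arrays to 1 distribution before probes are summarised. RMA compresses low signals, so changes of dim genes can be understated. At 5 weeks they also depended on the normalization. With CSE 5%, NKX2-1 and SLC34A2 had -0.37 and -0.28 as deposited, and -0.10 and -0.01 after cyclic loess. Symbols came from the platform annotation: 19460 clusters had 1 symbol, 1754 several and 12083 none. A model of 12 group means was fitted with limma 3.58.1 in R 4.3.3 to all 33297 clusters (24 residual degrees of freedom), and p-values were adjusted by Benjamini-Hochberg within each of 21 comparisons. The fit was tested on data simulated with independent noise and few changed clusters. The shift of the 5-week controls was not simulated, so that run does not bear on the calls at 5 weeks. All 10 genes are given; from each gene list, those with the smallest p with CSE 5% at 5 weeks or CSE 10% at 1 week could be named. The members and lists were chosen with earlier results of these data known. Alternatives were a replicate block, cyclic loess, centring on 25 housekeeping genes, trended and robust variance, array weights, the brightest 60% of clusters, the mean of a gene's clusters, a fit per week, each comparison alone, and leaving out each array. The number of arrays limits the precision.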

Additional observations from a re-analysis of the deposited data

Results flagged for a closer look

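The effect of CSE on 2 of the 10 genes differed between 5 weeks and 1 week by a test of the difference itself, in limma with adjustment over all clusters. For LPCAT1 the 5-week effect minus the 1-week effect was -0.498 with CSE 1%, -0.806 with CSE 5% and -0.737 with CSE 10% (log2), and it passed the test without any 1 of the 12 arrays concerned. For SFTPB it was -0.363 with CSE 1% and -0.350 with CSE 10%, and the call held in 4 and 5 of the 12 fits that left out 1 array, with values from -0.43 to -0.24 and from -0.42 to -0.23. Control replicate 1 at 5 weeks was the highest of all arrays for SFTPB, and without it the values were -0.24 and -0.23 (adjusted p = 0.168 and 0.159). The control cells changed as well: from 1 to 5 weeks their SFTPB rose by 0.405 and their LPCAT1 by 0.38. Mean SFTPB at 1 and 5 weeks was 6.10 and 6.14 with CSE 1%, and 6.20 and 6.26 with CSE 10%. Mean LPCAT1 was 9.38 and 9.26 with CSE 1%, 9.52 and 9.10 with CSE 5%, and 9.21 and 8.85 with CSE 10%.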

How the results depend on the processing

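The counts here are of the 10 genes called, and the earlier controls are those of weeks 1 and 3. Not every count that changed is listed. With cyclic loess they were 3 for each of CSE 1%, 5% and 10% at 5 weeks (3, 2 and 2 lower, 0, 1 and 1 higher), 2 for controls at 5 against 3 weeks (both higher), 4 at 5 against 1 week (3 higher, 1 lower), 1 for CSE 10% against 1% at 3 weeks (lower), 1 and 2 for a different effect at 5 weeks with CSE 1% (lower) and 5% (1 each way), and 1 and 2 for CSE 1% (higher) and 5% (both lower) against the earlier controls. CSE 10% against the earlier controls gave 3, all lower. With cyclic loess the control difference of NKX2-1 between 5 and 3 weeks reversed, to -0.0677 (adjusted p = 0.502). The median of all clusters at 5 weeks was -0.015, -0.030 and -0.034 rather than -0.14, -0.17 and -0.17. Centred on housekeeping genes, the counts were 0 for CSE 10% at 1 week, 1 for CSE 1% at 3 weeks, 1 for CSE 10% against 1% at 3 weeks, 1 and 1 for a different effect with CSE 1% and 10%, and 1 for CSE 1% against the earlier controls. At 3 weeks CSE 5% then gave 1 higher and 0 lower, and CSE 10% gave 3 higher and 1 lower. At 5 weeks 5, 6 and 5 were lower with CSE 1%, 5% and 10%. Against the earlier controls CSE 10% gave 1 higher and 1 lower. With array weights they were 1 and 3 for CSE 1% and 5% at 1 week, 1 and 2 at 3 weeks, 3 for CSE 5% at 5 weeks, 1 and 4 for CSE 10% against 1% at 1 and 3 weeks, 3 and 4 for controls at 3 against 1 and 5 against 3 weeks, and 2 and 2 for CSE 1% and 5% against the earlier controls. Among the brightest 60% of clusters, which hold 5 of the 10 genes, they were 1 and 0 for CSE 5% and 10% at 1 week, 3, 2 and 2 at 5 weeks, 1 for CSE 10% against 1% at 3 weeks, 2 and 1 for controls at 5 against 3 and 1 weeks, 1 and 1 for a different effect with CSE 1% and 10%, and 1 and 1 for CSE 1% and 10% against the earlier controls. With each comparison alone they were 0 for CSE 10% at 1 week, 0 for CSE 5% at 3 weeks, 0, 2 and 3 at 5 weeks, 0 for CSE 10% against 1% at 5 weeks, and 0, 0 and 1 for controls at 3 against 1, 5 against 3 and 5 against 1 weeks. A fit per week gave 0 for CSE 10% at 1 week and 0 for CSE 5% at 3 weeks. At 5 weeks it lost the calls of SLC34A2 and AGER with CSE 1%, SLC34A2 with CSE 5% and SFTPD with CSE 10%. Same-number correlations were over 0.1 in 9 of 45 pairs (from -0.34 to 0.50), and in all 3 pairs for 1 of 15 comparisons, CSE 1% against control at 5 weeks (0.32, 0.17 and 0.10), where the replicate block left 7 genes called. The labels give only a shared replicate number. Correlations of 3 pairs per comparison cannot show whether equal numbers mark the same experiment. With the replicate block the counts were 0 for CSE 5% at 3 weeks and 1 for a different effect with CSE 1%. Leaving out 1 array gave 0 to 1 for each concentration at 1 week, 0 to 1, 0 to 1 and 1 to 3 at 3 weeks, and 3 to 7, 4 to 7 and 3 to 8 at 5 weeks. It gave 0 to 2 for CSE 10% against 1% at 3 weeks, 0 to 1, 2 to 7 and 2 to 3 for the controls, 1 to 3 and 1 to 2 for a different effect with CSE 1% and 10%, and 0 to 1, 1 to 2 and 1 to 3 against the earlier controls. LPCAT1 with CSE 10% at 3 weeks and with CSE 5% and 10% at 5 weeks was called under every alternative run. The causes of these changes were not tested.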
